A study of Mus musculus with 12 samples.

Results

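A set of 6 genes for G-protein coupled receptors (GPCRs) were followed across the NSC-34 lines: P2ry6, Ptgir, Sstr2, Gpr19, Gpr85 and Oprl1. The 6 genes are represented by 11 of the 45281 probes and are 6 of the 19057 genes named on the array. Every probe annotated to one of these symbols was taken. They come from the GPCRs that the study itself listed as lower or higher in progranulin (PGRN) depleted cells than in both other lines, so the members were chosen by the intensities of the depleted cells against those of both other lines. The differences of the depleted cells are therefore given as a description without a test. Only the comparison of PGRN overexpressing with control cells was tested. The choice did not use that difference itself. It did use the arrays of both lines, so the p-values are not independent of the choice. Of the other listed receptors, Gpr82, Tshr and Ptger3 had no probe above background on at least 4 arrays, and the rest were not analysed here.

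NSC-34 is a mouse hybrid cell line used as a model of motor neurons, and the 12 arrays cover 3 stably transfected lines of it. NSC-34/shPGRN cells (4 arrays) carry a short hairpin RNA against mouse Grn in the pRS vector and were selected with puromycin. NSC-34/hPGRN cells (4 arrays) carry human PGRN in pcDNA3 and were selected with G418, and vector control cells (4 arrays) carry an empty vector, which of the 2 not being stated in the sources used here. Vector, drug selection and PGRN level therefore cannot be told apart in a comparison of lines. All lines were taken through decreasing serum and lysed after 24 h in 1% serum. The 4 arrays of a line are separate flasks of 1 stable line, so every p-value measures the spread between flasks and not between independently made lines. Intensities are linear, background-subtracted values as deposited, and a probe counted as above background where it passed a limit of 12.0 to 12.7 that was set on each array (p under 0.05).

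GPCRs are membrane-spanning proteins that bind a hormone, transmitter, nucleotide or lipid outside the cell and activate a heterotrimeric G protein inside it. The G protein alpha subunit then raises cyclic AMP (Gs), lowers it (Gi and Go) or activates phospholipase C (Gq), and RGS proteins, receptor kinases and arrestins end the signal. In neurons, receptors for nucleotides, prostanoids and neuropeptides of this class set excitability, transmitter release and neurite growth. P2ry6 is the receptor for the nucleotide UDP and couples to Gq. Ptgir is the prostacyclin receptor and couples to Gs. Sstr2 binds somatostatin and Oprl1 binds nociceptin, and both couple to Gi and Go. Gpr19 and Gpr85 are orphan receptors of neural tissue, and Gpr85 belongs with Gpr27 and Gpr173 to a family whose sequence is nearly identical among vertebrates.

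The genes lie apart from each other on the mouse genome (GRCm38.p6). P2ry6 (chr7:100937630-100975498) and Ptgir (chr7:16906490-16910905), both higher in shPGRN cells, share chromosome 7. Gpr19 (chr6:134869092-134898194) and Gpr85 (chr6:13834406-13839942), both lower in shPGRN cells, share chromosome 6. Sstr2 (chr11:113619327-113626028) and Oprl1 (chr2:181715000-181720985) lie on 2 further chromosomes. In the RefSeq promoter table, which holds 250 bases before to 50 bases after each transcript start, 5 of the 6 genes had a window and P2ry6 had none. The windows of the 3 genes that were lower together in shPGRN cells, Sstr2, Gpr19 and Gpr85, and of Ptgir, which was higher, are shown so that the letters near their starts can be set side by side. Capitals mark matches, on either strand, to 1 of 6 short motifs.

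Sstr2, chr11:113619077-113619376, plus strand: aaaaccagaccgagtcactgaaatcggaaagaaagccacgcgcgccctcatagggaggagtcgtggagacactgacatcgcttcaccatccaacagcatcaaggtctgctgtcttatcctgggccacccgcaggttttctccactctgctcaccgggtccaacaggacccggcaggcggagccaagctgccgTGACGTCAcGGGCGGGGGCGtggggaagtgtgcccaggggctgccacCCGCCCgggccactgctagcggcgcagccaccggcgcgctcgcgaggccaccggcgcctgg

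Gpr19, chr6:134897876-134898175, minus strand: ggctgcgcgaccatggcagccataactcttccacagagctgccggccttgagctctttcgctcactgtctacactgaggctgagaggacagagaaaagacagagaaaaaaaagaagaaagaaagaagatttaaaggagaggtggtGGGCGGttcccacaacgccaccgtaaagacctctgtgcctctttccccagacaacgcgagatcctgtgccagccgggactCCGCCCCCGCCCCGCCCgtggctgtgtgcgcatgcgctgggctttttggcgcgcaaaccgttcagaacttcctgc

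Gpr85, chr6:13839893-13840192, minus strand: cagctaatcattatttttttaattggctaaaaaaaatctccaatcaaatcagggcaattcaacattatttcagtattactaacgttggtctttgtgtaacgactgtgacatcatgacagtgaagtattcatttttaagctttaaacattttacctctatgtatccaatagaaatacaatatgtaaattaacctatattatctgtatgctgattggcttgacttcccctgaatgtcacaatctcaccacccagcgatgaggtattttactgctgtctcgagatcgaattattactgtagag

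Ptgir, chr7:16906240-16906539, plus strand: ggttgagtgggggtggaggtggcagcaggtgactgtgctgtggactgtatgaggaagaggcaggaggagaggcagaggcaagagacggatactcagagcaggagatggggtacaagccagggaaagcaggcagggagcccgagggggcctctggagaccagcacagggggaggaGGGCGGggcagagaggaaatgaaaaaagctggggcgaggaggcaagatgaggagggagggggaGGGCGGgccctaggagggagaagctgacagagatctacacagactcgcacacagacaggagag

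The motifs searched were the cyclic AMP response element (CRE, TGACGTCA), its short form (TGACG, contained in the full element), the E-box (CACGTG), the GC box (GGGCGG), the AP-1 site (TGANTCA) and the EGR1 site (GCGGGGGCG, which can overlap a GC box). The Sstr2 window held a full CRE that began 58 bases before the start, a motif found in 1.79% of 32851 windows of this length. The same window held 2 GC boxes and an EGR1 site that overlapped the GC box beginning 49 bases before the start. Gpr19 has 4 windows in the table, and the most upstream of them, shown here, held 4 GC boxes and 1 EGR1 site. A window that overlaps it held the same matches, a further one held a short CRE that began 22 bases before its start, and the fourth held none. The Ptgir window held 2 GC boxes, at 76 and 13 bases before the start. The Gpr85 window and all 3 windows of Oprl1 held none of the 6 motifs. Over all windows, the GC box was present in 35.7%, the short CRE in 20.8%, the AP-1 site in 7.81%, the E-box in 7.15% and the EGR1 site in 2.91%. Sstr2 and Gpr19 both held GC boxes, an EGR1 site and a short CRE, in different windows for Gpr19, and Gpr85 shared none of them. A match is a description of the letters and says nothing about binding in these cells.

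P2ry6 had intensities of 664.4, 615.2, 629.5 and 610.4 in shPGRN cells, against 343.9, 318.1, 344.9 and 330.8 in hPGRN cells and 270.4, 364.6, 328.7 and 307.5 in control cells. All 4 arrays of the depleted line lay above all 8 arrays of the other lines, and the other lines overlapped. The means were 630 ± 24.4, 334 ± 12.7 and 318 ± 39.4 in shPGRN, hPGRN and control cells (SD, n = 4 arrays each). The depleted line was higher by 0.79 (SE 0.09) on the log2 scale than hPGRN cells and by 0.85 (SE 0.09) than control cells. These log2 values were computed after adding an offset, under which an intensity of 0 becomes 72.2, so they understate the ratio of low intensities. The ratio of the mean intensities was 1.88 against hPGRN cells and 1.98 against control cells. In bulk RNA, a change in the number of cells that express a receptor and a change in its RNA per cell cannot be told apart.

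Ptgir followed the same order. Its intensities were 541.1, 638.0, 535.1 and 484.0 in shPGRN cells, against 304.3, 330.3, 284.7 and 291.2 in hPGRN cells and 307.6, 309.6, 301.3 and 232.6 in control cells. No array of the depleted line overlapped either other line, and replicate 4 of control cells lay below the other 3 control arrays. The means were 550 ± 64.3, 303 ± 20.2 and 288 ± 37.0 in the same order of lines (SD, n = 4 each). The log2 difference was 0.73 (SE 0.10) against hPGRN cells and 0.79 (SE 0.10) against control cells.

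Sstr2 was lower in the depleted line. It had intensities of 104.2, 81.28, 94.28 and 86.72 in shPGRN cells, against 182.7, 183.8, 179.5 and 161.6 in hPGRN cells and 179.8, 153.6, 144.1 and 198.1 in control cells. The highest array of the depleted line was below the lowest array of both other lines, which overlapped each other. The means were 91.6 ± 9.93 in shPGRN cells, 177 ± 10.4 in hPGRN cells and 169 ± 24.6 in control cells (SD, n = 4 each). Sstr2 differed by -0.61 (SE 0.09) on the log2 scale from hPGRN cells and by -0.55 (SE 0.09) from control cells. On log2 values of the deposited intensities without the offset, the same differences were -0.95 and -0.88. A further Sstr2 probe was above background on no array.

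Gpr19 was the member with a separate level in each line. Its intensities were 355.2, 340.1, 407.8 and 382.9 in shPGRN cells, against 519.3, 539.5, 582.9 and 578.7 in hPGRN cells and 614.0, 732.1, 620.1 and 703.9 in control cells. The 3 sets of 4 arrays did not overlap, with the depleted line lowest and control cells highest. The means were 371 ± 30.0 in shPGRN cells, 555 ± 30.8 in hPGRN cells and 668 ± 59.5 in control cells (SD, n = 4 each). The log2 difference of the depleted line was -0.50 (SE 0.09) from hPGRN cells and -0.74 (SE 0.09) from control cells. The shPGRN and hPGRN arrays thus both lay below the control arrays, although one line carries a hairpin against Grn and the other extra PGRN. The difference of hPGRN from control cells did not pass the threshold (limma adjusted p = 0.126). Over all genes, 12.9% did not overlap between those lines.

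Gpr85 had intensities of 71.94, 92.77, 94.59 and 76.94 in shPGRN cells, against 163.0, 147.2, 122.5 and 175.7 in hPGRN cells and 136.0, 151.1, 180.4 and 106.7 in control cells. The depleted line lay below both other lines on every array, by the least against control replicate 4. The means were 84.1 ± 11.3 in shPGRN cells, 152 ± 22.9 in hPGRN cells and 144 ± 30.7 in control cells (SD, n = 4 each). The log2 difference was -0.52 (SE 0.11) from hPGRN cells and -0.46 (SE 0.11) from control cells. It was -0.85 and -0.76 without the offset, and -0.29 and -0.30 where the 2 kept probes of Gpr85 were averaged. The second kept probe was above background on 1 array of shPGRN, 2 of hPGRN and 2 of control cells, and a further probe was above background on none.

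Oprl1 lay close to background, and the probe used for it did not separate the lines. Its brightest probe had intensities of 18.99, 30.21, 13.8 and 24.51 in shPGRN cells, against 27.84, 33.25, 27.03 and 30.57 in hPGRN cells and 56.99, 37.32, 33.69 and 20.11 in control cells. Each pair of lines overlapped, and control cells ranged most widely. The means were 21.9 ± 7.07 in shPGRN cells, 29.7 ± 2.82 in hPGRN cells and 37.0 ± 15.2 in control cells (SD, n = 4 each). The log2 difference of the depleted line was -0.12 (SE 0.10) from hPGRN cells and -0.21 (SE 0.10) from control cells, and the second value became -0.12 without control replicate 1. Without the offset the differences were -0.49 and -0.72.

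**Figure D1:**
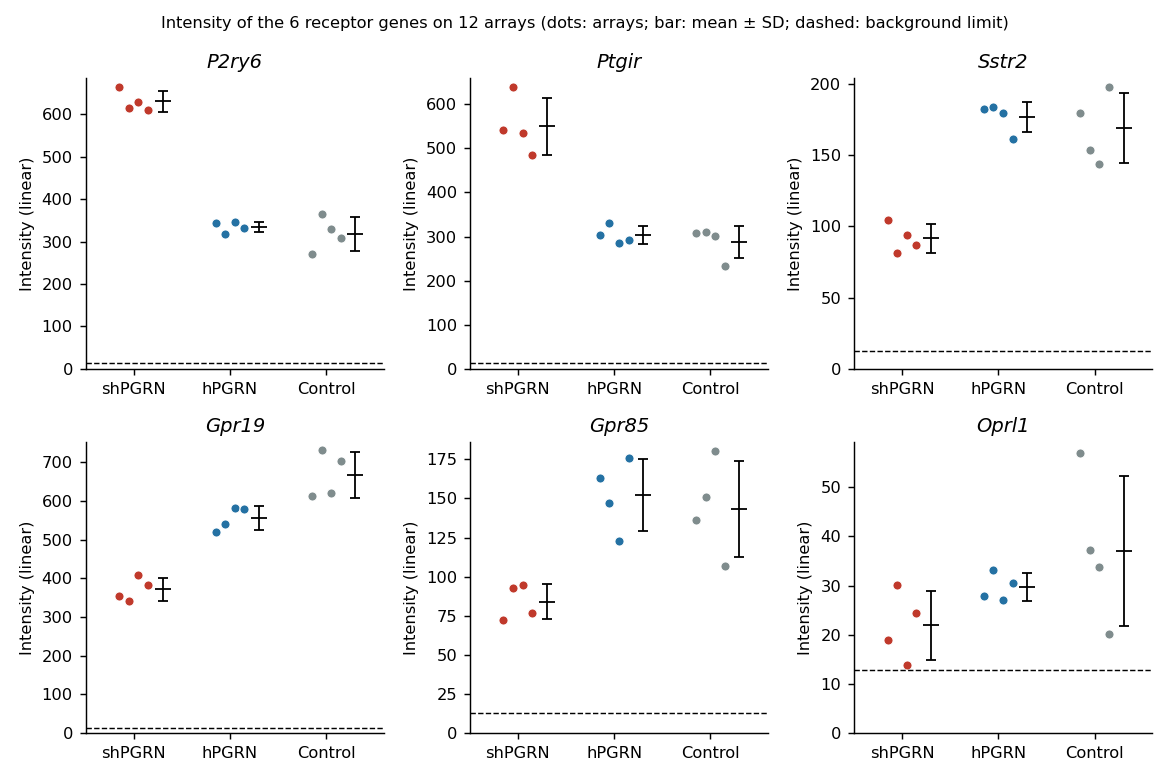
Intensity (linear, background-subtracted) of the 6 receptor genes, 1 panel per gene, with shPGRN, hPGRN and control arrays from left to right (dots are arrays, bars are mean ± SD of 4, the dashed line is the background limit). P2ry6 and Ptgir are highest and Sstr2, Gpr19 and Gpr85 lowest in shPGRN with no overlap, and the Oprl1 arrays of the 3 lines overlap.

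The members also differed in how closely the 4 flasks of a line agreed. The coefficient of variation of P2ry6 was 3.87% in shPGRN cells, 3.78% in hPGRN cells and 12.4% in control cells. That of Gpr19 was 8.08%, 5.56% and 8.91% in shPGRN, hPGRN and control cells. Oprl1, which lay nearest to the background limit, had 32.3% in shPGRN cells, 9.52% in hPGRN cells and 41.1% in control cells. For each of the 6 genes control cells had the largest of the 3 coefficients, which ranged from 8.91% to 41.1% there.

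The 3 Oprl1 probes did not give the same picture. Probe ILMN_1235369 was above background on no array of shPGRN cells, on all 4 of hPGRN cells and on 1 of 4 of control cells. Its intensities were -9.06, 2.18, -9.13 and -0.08 in shPGRN cells, 24.71, 30.02, 25.25 and 14.21 in hPGRN cells and 22.78, 4.43, 6.52 and 11.65 in control cells. On this probe the depleted line thus lay below both other lines on every array, with values under background. On the log2 scale with the offset, and set against the background limit of the depleted line, the signal of hPGRN cells was at least 1.13-fold higher. The offset draws this bound toward 1. No fold could be given between the depleted line and control cells. The remaining probe, ILMN_2807572, averaged 17.6 ± 9.58 in shPGRN cells, 15.2 ± 3.10 in hPGRN cells and 13.8 ± 13.9 in control cells (SD, n = 4 each) and was above background on 3 of 4 arrays of each line. The lines overlapped on that probe. All 3 probes are annotated to the same Oprl1 transcript, and which part of it each one reads was not analysed here.

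**Figure D2:**
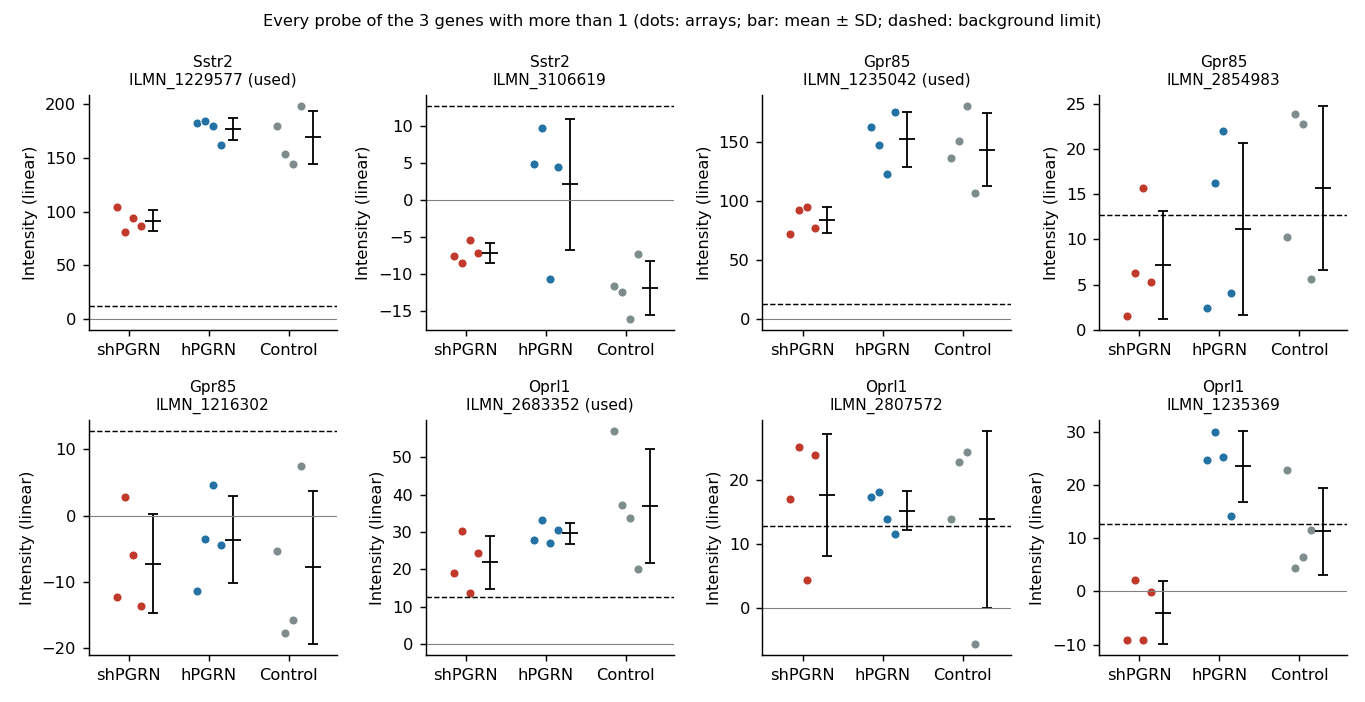
Intensity of every probe of Sstr2, Gpr85 and Oprl1, 1 panel per probe, with shPGRN, hPGRN and control arrays from left to right (dots are arrays, bars are mean ± SD of 4, the dashed line is the highest background limit of the 12 arrays). The shPGRN arrays lie below all others on the used probes of Sstr2 and Gpr85, where hPGRN and control arrays overlap, and 1 Oprl1 probe is above background on all 4 hPGRN and no shPGRN arrays.

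In all, 2 members were higher and 3 were lower in shPGRN cells than in either other line with no array overlapping. The remaining member, Oprl1, was not separated on its brightest probe. On the probes used, 5 of 6 members thus did not overlap in each comparison. Over all 11276 tested genes, 19.2% did not overlap between shPGRN and hPGRN cells (9.83% lower and 9.41% higher in shPGRN), and 18.0% did not between shPGRN and control cells (8.59% lower and 9.44% higher in shPGRN). Both comparisons share the depleted arrays, and they are the comparisons that chose the members. The study used a 1.5-fold limit, and which members lay near it depended on the scale and the comparison. As ratios of mean intensities without the offset, Gpr85 was at 0.553 of its level in hPGRN cells, inside the limit. Gpr19 at 0.669 lay just outside it and Oprl1 at 0.737 further outside. Against control cells, Gpr19 at 0.556, Gpr85 at 0.586 and Oprl1 at 0.591 were inside. The log2 scale with the offset draws ratios of low intensities toward 1. On that scale and against hPGRN cells, Sstr2 at 0.657 was just inside, and Gpr85 at 0.698 and Gpr19 at 0.707 were just outside. Against control cells on that scale, Gpr19 was inside, and Sstr2 and Gpr85 were outside.

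The comparison of hPGRN with control cells asked whether these receptors move when PGRN is raised above its usual level in this line. None of the 6 passed an adjusted p of 0.05 (limma with Benjamini-Hochberg adjustment over all 11276 genes), where 6.94% of all tested genes did. The arrays of both lines had entered the choice of the members, so these p-values are not independent of it. The log2 difference of P2ry6 was 0.07 (95% confidence interval -0.12 to 0.25, limma adjusted p = 0.756). For Ptgir it was 0.06 (-0.14 to 0.27, limma adjusted p = 0.793) and for Sstr2 0.05 (-0.14 to 0.24, limma adjusted p = 0.818). Gpr85 differed by 0.06 (-0.16 to 0.28, limma adjusted p = 0.814) and Oprl1 by -0.09 (-0.30 to 0.11, limma adjusted p = 0.680). Ptgir and Gpr85 changed sign without control replicate 4, at -0.02 and -0.03, and neither was near the threshold.

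Gpr19 stood apart among the members in that comparison. It was lower in hPGRN than in control cells by a log2 difference of -0.24 (95% confidence interval -0.42 to -0.05), in 4 of 4 arrays without overlap. Its unadjusted limma p was 0.0156 and its adjusted p was 0.126, with a range of 0.0861 to 0.261 over the other settings, so it missed the threshold in each of them. Over all genes, 12.9% did not overlap between these lines, 5.96% being lower in hPGRN cells, and 1 of 6 members did not.

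**Figure D3:**
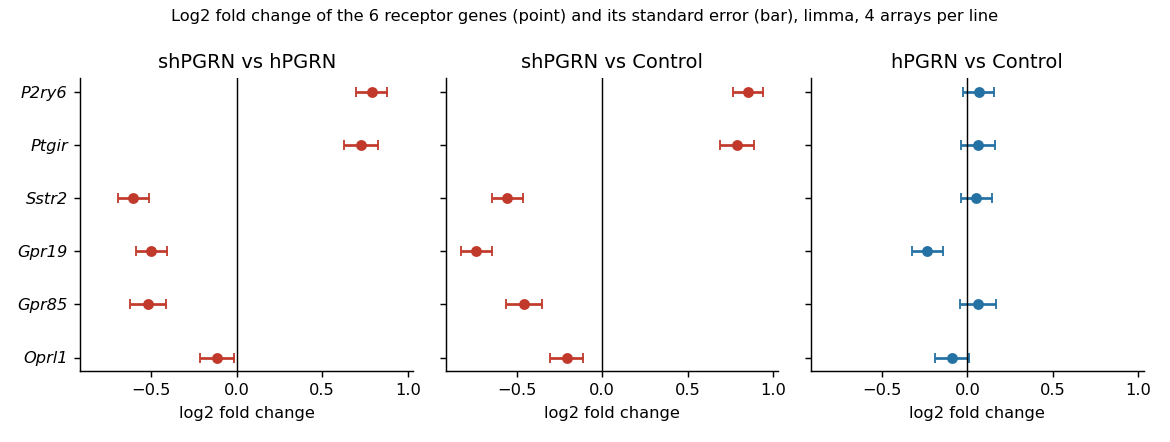
Log2 fold change (x axis) of each receptor gene (y axis) in the 3 comparisons of lines, as the limma estimate (point) with its standard error (bar), from 4 arrays per line. The shPGRN estimates run between -0.74 and 0.85 and all hPGRN against Control estimates lie between -0.24 and 0.07.

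Grn, the target of the hairpin, checks the label of the depleted line, but not the hPGRN and control labels against each other. Its intensity was 612 ± 74.1 in shPGRN cells, 1048 ± 158 in hPGRN cells and 887 ± 55.2 in control cells (SD, n = 4 each), with limma log2 differences of -0.71 (adjusted p = 6.33e-05) and -0.49 (adjusted p = 0.00249) for the depleted line and 0.22 (adjusted p = 0.252) for hPGRN against control cells. The probe reads the mouse transcript, so the human PGRN of hPGRN cells is not measured by it. Within a line the arrays correlated at 0.988 to 0.996, and 19245 to 19694 probes per array were above background. Of 10 neuronal marker genes with a probe, 6 were above background on all 12 arrays and Nefl on none, and of 7 motor neuron markers Isl1 and Prph were. The summed intensity of the neuronal markers was 1815 to 1927 in shPGRN, 2044 to 2353 in hPGRN and 2609 to 3161 in control cells. These sums had the same order as Gpr19. The summed intensity of the motor neuron markers was 10150 to 10874 in shPGRN, 11142 to 12087 in hPGRN and 8218 to 9969 in control cells. Here the control sums were lowest. A sum mostly follows its brightest genes, and neither order held for every marker. Of 7 tested neuronal markers, limma called 2 down and 1 up in shPGRN against hPGRN cells (median log2 difference -0.02). With control cells as reference, 4 were called down in shPGRN (median -0.40) and 2 in hPGRN cells (median -0.24), with 0 up in both. Of 4 tested motor neuron markers, 2 were called down and 0 up in shPGRN against hPGRN cells (median -0.22). In shPGRN against control cells 1 was called down and 1 up (median 0.06). In hPGRN against control cells 0 were called down and 1 up (median 0.16). Over all tested genes, 13.9% were called in shPGRN against hPGRN, 14.2% in shPGRN against control and 6.94% in hPGRN against control cells. In the same order, the shares were 42.9%, 57.1% and 28.6% of the neuronal and 50%, 50% and 25% of the motor neuron markers. The lists are short, and their shares were not compared by a test. The part of either marker list in the receptor values was not tested. Of 9 microglial markers none was above background on all arrays, and Cx3cr1, Tyrobp and C1qa were above it on none. The fibroblast, endothelial and glial lists had 1 marker each above background on all 12 arrays, Pdgfra, Pecam1 and Mbp, while Col1a1, Cdh5 and Tek were above it on none.

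Other receptors of the members' own families showed what the array could see of them. Of the nucleotide receptors 4 were tested, and P2ry1, P2ry12 and P2ry13 passed the threshold in no comparison. Of the prostanoid receptors, Ptger4 and Tbxa2r were tested beside Ptgir and passed in none, nor did Sstr5, the other tested somatostatin receptor, or Gpr27 of the Gpr85 family. Over the remaining 102 tested receptors, 4 were lower and 5 higher in shPGRN than in hPGRN cells, or 8.82%, against 13.9% of all genes by limma's adjusted p. Set against control cells, shPGRN cells had 5 of them lower and 3 higher, or 7.84%, where 14.2% of all genes were called. In hPGRN against control cells 4 were lower and 1 higher, or 4.9%, where 6.94% of all genes were called. Leaving out the 6 members, which were chosen as different in shPGRN cells, lowers the shares of the shPGRN comparisons. With the members counted, 14 of 108 tested receptors (13%) were called in shPGRN against hPGRN cells. Against control cells 13 of the 108 (12%) were. The calls of the members follow from how they were chosen, so both shares are a description and not a test. The lists behind these counts still hold Fzd3 and Fzd7, which the study also listed from these arrays. Fzd7 was called in shPGRN cells against both other lines, and Fzd3 was not called against control cells. All 11 tested receptors for biogenic amines stayed short of the threshold in each comparison, with 2, 2 and 0 of them at an unadjusted p under 0.05.

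Among these receptors Gper1, the G-protein coupled estrogen receptor, was lower in the depleted line. Its intensities were 137, 111, 121 and 109 in shPGRN cells, against 171, 262, 236 and 248 in hPGRN cells and 297, 252, 235 and 274 in control cells, and the depleted line did not overlap either (limma log2 differences -0.65, adjusted p = 0.000123, and -0.81, adjusted p = 7.1e-06). F2rl2, a thrombin receptor of the protease-activated family, was lower in shPGRN and hPGRN cells than in control cells. Its means were 925 ± 55.8 in shPGRN, 817 ± 43.9 in hPGRN and 1454 ± 166 in control cells (SD, n = 4 each). Its limma log2 difference from control cells was -0.61 in shPGRN (adjusted p = 7.52e-05) and -0.77 in hPGRN cells (adjusted p = 9.87e-06).

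**Figure D4:**
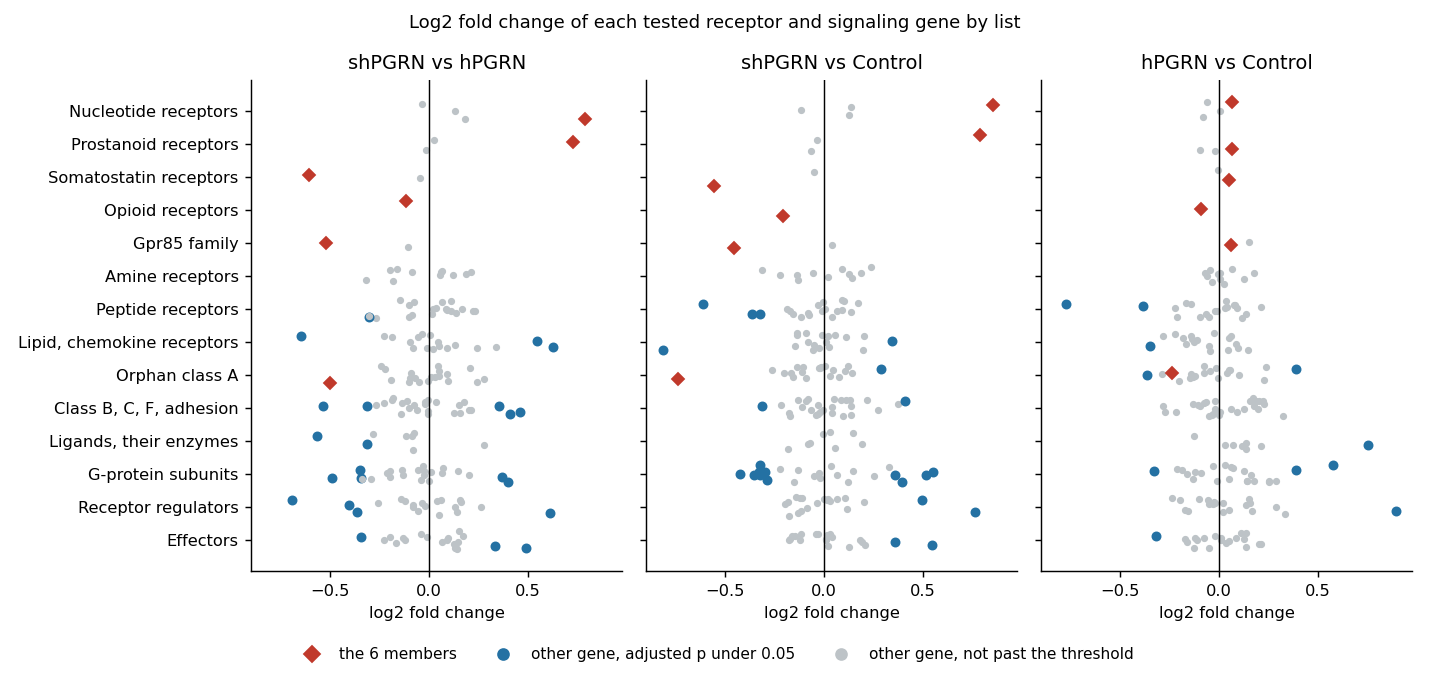
Log2 fold change (x axis) of every tested receptor and signaling gene by list (y axis) in the 3 comparisons of lines, with the 6 members as red diamonds and other genes past an adjusted p of 0.05 in blue. The members run from -0.61 to 0.79 and from -0.74 to 0.85 in the first 2 panels, with Oprl1 nearest to 0 in both, and from -0.24 (Gpr19) to 0.07 in the hPGRN against Control panel.

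The ligands, G proteins, regulators and effectors that act with these receptors were counted in the same fit. Of 71 tested genes, 9 were lower and 5 higher in shPGRN than in hPGRN cells (19.7%, where 13.9% of all genes were called). Against control cells, 7 were lower and 8 higher in shPGRN cells (21.1%, where 14.2% of all genes were). In hPGRN against control cells, 2 were lower and 4 higher (8.45%, near the 6.94% of all genes). The last count was 3 without hPGRN replicate 3 or without control replicate 3. The count of 15 against control cells was 8 on values without the offset, with 2 lower and 6 higher. With an offset of 16 it was 12, with 4 lower and 8 higher. G-protein subunits made up 11 of those 15, with 7 lower and 4 higher of 23 tested (47.8%, where 14.2% of all genes were called). The 7 lower in shPGRN than in control cells were Gnas, Gnao1, Gnaq, Gnb4, Gnb5, Gng3 and Gng10, with log2 differences of -0.43 to -0.29. They were all of the lower genes among the 15, and Gng3 was above background on no shPGRN array. Gnaq is the alpha subunit class through which P2ry6 signals. Gnaz, a Gi-class alpha subunit, and Gng8, a gamma subunit, rose in shPGRN against control cells (limma log2 differences 0.55, adjusted p = 0.00027, and 0.51, adjusted p = 0.000738), and Gnaz also rose in hPGRN cells (0.58, adjusted p = 0.000403). Gnas, the alpha subunit through which Ptgir raises cyclic AMP, was lower against control cells on its brightest probe (-0.43, limma adjusted p = 0.0113) but did not pass when its 6 kept probes were averaged (-0.09, adjusted p = 0.496).

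Among the genes nearest to the members' own ligands, Ptgis, the prostacyclin synthase that makes the ligand of Ptgir, had intensities of 49.2, 56.2, 65.1 and 63.3 in shPGRN cells, against 81.2, 89.7, 93.5 and 96.3 in hPGRN and 60.6, 65.2, 85.4 and 93.7 in control cells. It was lower in the depleted line than in hPGRN cells (limma log2 difference -0.31, adjusted p = 0.024), opposite to Ptgir. That call was lost when shPGRN replicate 1 or hPGRN replicate 2, 3 or 4 was left out (limma adjusted p 0.0526 to 0.0783). Enho encodes adropin, which has been proposed as a ligand of Gpr19, and it was highest in hPGRN cells. Its means were 44.3 ± 16.6 in shPGRN, 99.4 ± 18.2 in hPGRN and 29.5 ± 9.61 in control cells (SD, n = 4 each), and the limma log2 difference of hPGRN from control cells was 0.75 (adjusted p = 0.00013). Cort, whose product cortistatin binds somatostatin receptors, passed in no comparison.

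The regulators of G-protein signaling Rgs4 and Rgs3 separated the lines in different ways. Rgs4, which speeds the shut-off of Gi and Gq, was highest in the overexpressing line, at 471, 390, 500 and 391 in hPGRN cells against 188, 180, 238 and 204 in control cells (limma log2 difference 0.89, adjusted p = 1.93e-06), while shPGRN cells had 245, 244, 248 and 233. Rgs3, of the same class, was high in the depleted line, at 236, 234, 208 and 153 in shPGRN cells against 135, 109, 96.2 and 102 in hPGRN cells and 61.6, 109, 87.9 and 111 in control cells. The limma log2 differences were 0.61 (adjusted p = 0.000831) and 0.76 (adjusted p = 6.94e-05) on its brightest probe, and with its 6 kept probes averaged they were 0.19 and 0.20 (adjusted p = 0.144 and 0.122).

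**Figure D5:**
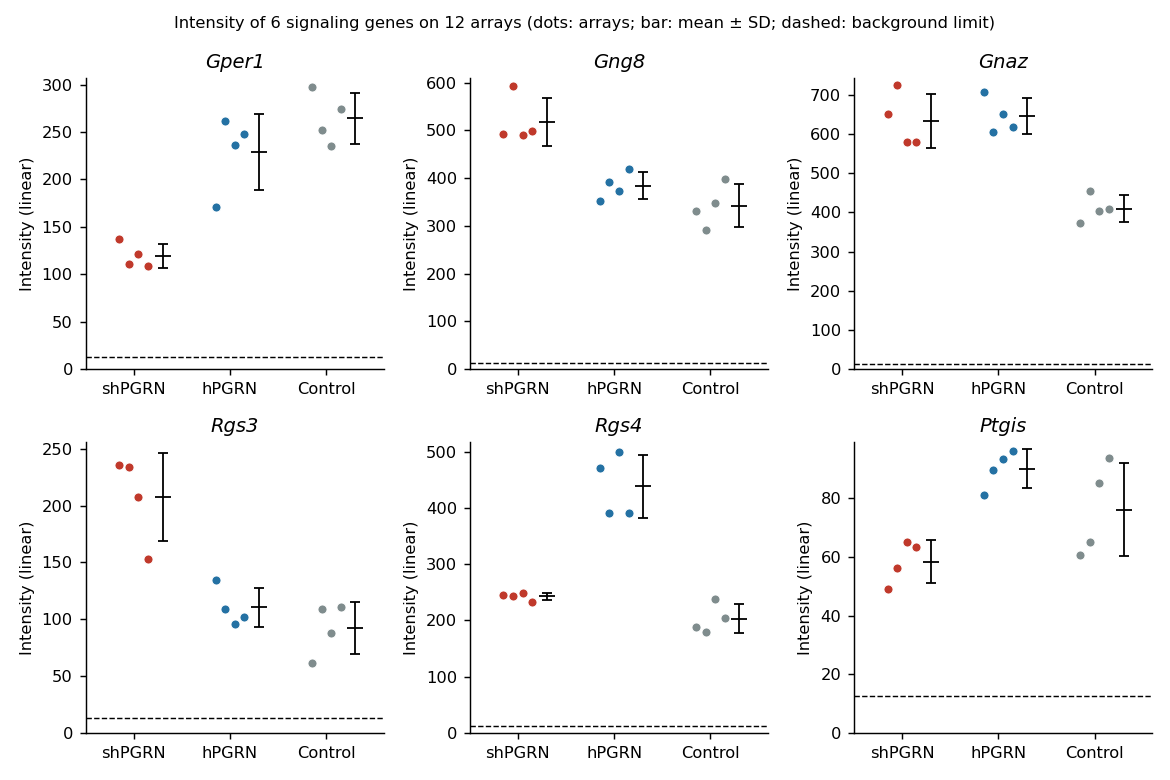
Intensity (linear, background-subtracted) of Gper1, Gng8, Gnaz, Rgs3, Rgs4 and Ptgis, with shPGRN, hPGRN and control arrays from left to right (dots are arrays, bars are mean ± SD of 4, the dashed line is the background limit). Rgs4 is at least 390 on the hPGRN arrays and at most 248 on all others, and Gnaz is lowest in control cells.

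The genes whose pattern over the 12 arrays was most like each member were found by Pearson correlation of log2 values across all tested genes. The points share 3 line means, so a high value says that the lines were ordered alike. P2ry6 was most like Fam163a (r = 0.991) and Smpdl3b, an acid sphingomyelinase-like phosphodiesterase (r = 0.981), and Ptgir was most like Ephx1, the microsomal epoxide hydrolase (r = 0.974), and the transcription factor Ets2 (r = 0.968). Sstr2 was most like Yif1a (r = 0.976) and Smim7 (r = 0.972), Gpr19 like Gm364 (r = 0.961) and the ethanolamine kinase Etnk1 (r = 0.959), and Gpr85 like the splicing regulator Esrp1 (r = 0.947) and the homeobox gene Lhx1 (r = 0.944). Oprl1 had the least similar partners, Vwf (r = 0.926) and Olfml2b (r = 0.853). Fam163a, the gene most like P2ry6, had intensities of 277, 292, 272 and 274 in shPGRN cells, against 66.4, 50.6, 57.7 and 52.4 in hPGRN cells and 12.9, 49.0, 40.1 and 31.1 in control cells.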

How the data were processed

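Total RNA of 12 flasks was read on Illumina mouse whole-genome BeadChips. The authors deposited a table of linear intensity values for 45281 probes, background-subtracted, with near-equal distributions on all arrays; their methods name lumi and FlexArray, and no source used here gives the steps behind this table. A further table of 24 columns matches no sample by name and was not used. Of the probes, 34885 carry 1 gene symbol, 18 several and 10378 none. Values were corrected with normexp (offset 50), quantile normalized and taken to log2 in limma 3.58.1 (R 4.3.3), which turns a deposited 0 into 72.2. The background limit was set per array from the peak of its intensity distribution and the scatter under that peak. Probes above it on at least 4 of 12 arrays were kept (20688), and the brightest kept probe stood for each of 11276 genes, 4223 genes having more than 1. Line means were fitted to all 12 arrays with Benjamini-Hochberg adjustment over genes. The number of arrays, 4 per line, limits the precision. The fit was tested on simulated data.

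Named genes are the members, Grn, the receptors listed by the study, up to 3 genes per list and comparison with the smallest adjusted p, and the 2 genes most like each member. The members and the 14 receptor and signaling lists were chosen with earlier results of these data known. Cort, P2ry1, P2ry12, P2ry13, Ptger4, Tbxa2r, Sstr5 and Gpr27 are named as list members that passed no threshold, and Gnao1, Gnaq, Gnb4, Gnb5 and Gng10 were named after their values were seen. Promoter sequences are from RefSeq (GRCm38.p6). Alternatives used another offset or none, another scaling, no filter or a stricter one, the mean of all kept probes, 2 lines only, array weights or a replicate block, or left out each array in turn.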

Additional observations from a re-analysis of the deposited data

Results flagged for a closer look

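In 156 sets of 4 arrays of a line for the named genes, 7 had 1 array set off from the other 3 by more than Dixon's 95% limit, which chance exceeds in about 1 of 20 sets. Among the members only Ptgir in control cells was such a set, with 233 in replicate 4 against 301 to 310 in the others. In the depleted line, Gng8 was 594 in replicate 2 against 490 to 499, Vwf was 194 in replicate 2 against 132 to 141, and Gng3 was 10.3 in replicate 3 against -0.423 to 0.122, all below background. In hPGRN cells, Etnk1 was 141 in replicate 1 against 151 to 153. In control cells, Gng12 was 67.6 in replicate 1 against 96.3 to 99.9, and Enho was 15.2 in replicate 2 against 33.3 to 35.9. What set these arrays off was not tested.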

How the results depend on the processing

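Over 396 values of the members under 22 alternatives, 379 kept their size or call, 13 moved beyond the spread between arrays, and 4 changed sign near 0. On log2 values of the deposited intensities without normexp, 8 in place of 15 signaling genes passed in shPGRN against control cells, and in hPGRN against control cells 517 in place of 783 genes and 3 in place of 5 receptors did. Leaving out 1 array at a time gave 506 to 849 genes and 3 to 7 signaling genes in hPGRN against control cells, with 507 genes without hPGRN replicate 4, 506 without control replicate 3, and 3 signaling genes without hPGRN or control replicate 3.

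Sign changes were all of log2 differences that passed no threshold. With the kept probes of a gene averaged, Rgs9 and S1pr2 were at 0.00323 and -0.0035 in shPGRN against control cells, and Gpr85, Oprl1 and Gnas at -0.00827, 0.0483 and 0.0257 in hPGRN against control cells. With array weights, Gnb1 was at 0.00363 in shPGRN against hPGRN cells and Smim7 at -0.00337 in hPGRN against control cells. With 1 array left out, hPGRN against control cells ran from -0.0250 to 0.141 for Gpr85, -0.0151 to 0.0933 for Ptgir, -0.0409 to 0.0687 for Smim7, -0.00898 to 0.0914 for Yif1a, -0.0047 to 0.0715 for Ephx1, -0.0589 to 0.00342 for F2r, -0.132 to 0.0281 for Fzd7 and -0.0214 to 0.102 for Lhx1. shPGRN against hPGRN cells ran from -0.0872 to 0.0143 for Gnaz and -0.0601 to 0.0418 for Gnb1, and Gng12 against control cells from -0.00383 to 0.143. The cause was not tested.

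Arrays with the same replicate number did not deviate together (correlations -0.158 to 0.127 over 12 pairs), and no pairing was assumed. With the replicate block, 1433, 1483 and 682 genes passed in shPGRN against hPGRN, shPGRN against control and hPGRN against control cells, in place of 1563, 1599 and 783. Oprl1 lies near the background limit and the second probes of Gpr85 and Sstr2 at or under it on most arrays, where differences of the size seen in the other members may not be detectable.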
